A study of Mus musculus with 93 samples.

Results

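Granulosa cells and oocytes signal to each other through a small set of genes, and 8 of them were followed here in mice that lack estrogen receptor beta (gene symbol Esr2). They were Kitl and Kit, Gja1 and Gja4, Nppc and Npr2, and Gpr3 and Pde3a, taken by gene symbol from the 24047 symbols that the 6 deposited count tables hold between them. The tables cover 93 Smart-seq2 RNA libraries from mouse ovary. The granulosa cell libraries came from knockout (KO) and wild type (WT) mice at 4 weeks (7 KO and 7 WT libraries), 7 weeks (5 KO and 5 WT) and 6 months (6 KO and 12 WT). The oocyte libraries came from KO and WT mice at 4 weeks (7 KO and 12 WT), 7 weeks (12 KO and 5 WT) and 6 months (4 KO and 11 WT). Nothing but genotype, cell type and age separated the groups in the labels, which do not say which animals the libraries came from, how many cells each held or how the Esr2 allele was made. The p-values below therefore measure the spread between libraries, which may be partly technical.

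In a growing mouse follicle, granulosa cells make Kit ligand (Kitl), which binds the receptor tyrosine kinase Kit on the oocyte surface and promotes oocyte growth and survival. Gap junctions join the cells: Gja1 encodes the main connexin between granulosa cells, and Gja4 encodes the connexin of the junctions at the oocyte surface. Meiotic arrest is held by cyclic nucleotides. Nppc encodes the precursor of C-type natriuretic peptide, which makes its receptor, the guanylyl cyclase Npr2, produce cGMP in granulosa cells. This cGMP passes through the gap junctions and inhibits Pde3a, the phosphodiesterase that breaks down cAMP in the oocyte, where the constitutively active receptor Gpr3 keeps cAMP production going. On GRCm38, GENCODE places Kitl at chr10:100015630-100100416, Gja1 at chr10:56377330-56402513, Npr2 at chr4:43631935-43651244, Kit at chr5:75574916-75656722 and Pde3a at chr6:141249269-141507448 on the plus strand, and Gja4 at chr4:127311421-127314039, Nppc at chr1:86666291-86670571 and Gpr3 at chr4:133209340-133212536 on the minus strand. The tables give a single value per gene and library, so coding exons and UTRs are not told apart.

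Levels are given as CPM, the counts of a gene scaled to a common library total. Totals were 702726 to 6469419 counts in granulosa libraries and 1814958 to 7751953 in oocyte libraries. Esr2 had no count in any of the KO granulosa libraries of the 3 ages. The limit that 0 counts allow was 0.118, 0.212 and 0.170 CPM at 4 weeks, 7 weeks and 6 months, taken as 3 counts over the summed libraries of a group. In WT granulosa libraries Esr2 averaged 30.3 ± 9.69 (SD, n = 7), 25.7 ± 6.75 (n = 5) and 11.5 ± 4.64 CPM (n = 12) at the 3 ages. Among KO oocyte libraries 1 count was found at 4 weeks, 4 counts at 7 weeks and 0 at 6 months. Every WT oocyte library held Esr2, with means above those of WT granulosa cells. They were 88.0 ± 17.4 (SD, n = 12), 69.8 ± 11.9 (n = 5) and 73.2 ± 19.9 CPM (n = 11) at the 3 ages. The cell type labels were checked with marker sums. A list of 12 granulosa markers took 0.161 to 0.664% of the counts of granulosa libraries and 0.00526 to 0.0415% of the counts of oocyte libraries. All 12 had a row for granulosa cells, but only 5 or 6 for oocytes, so these sums cover different genes. Cyp19a1, the aromatase gene, went against that list, with group means of 1.88 to 7.57 CPM in granulosa cells and 44.8 to 82.1 CPM in oocytes, and Gata4, a transcription factor, had 46.2 to 79.5 CPM in granulosa cells and 13.9 to 31.7 CPM in oocytes, so the sum on the oocyte side is not a measure of granulosa cells alone. Without Cyp19a1 the list took 0.161 to 0.663% in granulosa libraries and 0.00206 to 0.0378% in oocyte libraries. A list of 15 oocyte markers took 0.00313 to 0.111% of the counts of granulosa libraries and 1.52 to 4.76% of the counts of oocyte libraries. Of the 15, 14 had a row in granulosa cells of 4 and 7 weeks and 11 at 6 months. Tle6 had group means of 37.6 to 72.7 CPM in granulosa cells and 286 to 702 CPM in oocytes. In KO granulosa cells of 4 weeks it gave 48.3 CPM of a mean sum of 67.6 CPM. The sum on the granulosa side is therefore not a measure of oocyte material alone. In 4 granulosa libraries, all WT, the oocyte markers summed to over 200 CPM: library 6 of 4 weeks, at 1110 CPM, and libraries 3, 4 and 5 of 7 weeks, at 306, 411 and 375 CPM. The other granulosa libraries had 31.3 to 115 CPM, and the comparisons that hold any of the 4 were refitted without them, a setting added after seeing the data. No source says how many cells a library holds, and in such bulk values fewer cells of a type and less RNA per cell cannot be told apart.

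The regions before the starts of Gja1 and Npr2 are shown because both genes were lower in KO granulosa cells of 6 months than in younger ones. Each line gives the 250 bases before the annotated start, from RefSeq on GRCm38.p6, plus strand, 5′ to 3′. Capitals mark the half-site of the estrogen response element, GGTCA on either strand. The Kitl window overlaps the gene as GENCODE places it and is described by its motifs.
Gja1, chr10:56377050-56377299: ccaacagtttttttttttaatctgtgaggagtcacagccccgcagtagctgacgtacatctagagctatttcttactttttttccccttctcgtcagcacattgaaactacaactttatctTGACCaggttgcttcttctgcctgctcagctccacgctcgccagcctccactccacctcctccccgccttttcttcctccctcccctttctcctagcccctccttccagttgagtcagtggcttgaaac
Npr2, chr4:43631685-43631934: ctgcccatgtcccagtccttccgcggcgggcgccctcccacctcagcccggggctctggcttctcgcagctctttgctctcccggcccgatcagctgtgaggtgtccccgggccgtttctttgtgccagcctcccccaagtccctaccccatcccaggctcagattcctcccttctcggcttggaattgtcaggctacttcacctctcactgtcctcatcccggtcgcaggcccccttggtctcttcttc

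Motifs were searched on both strands in 300-base windows, 250 bases before to 50 after the start, in all 32851 promoters of that set. The half-site GGTCA was found in 40.5% of all promoters and in 2 of the 8 windows of the members, which cover 7 genes because Kit has 2 starts and no window was matched for Pde3a. Those 2 windows were Gja1, at position -129 on the minus strand, and Gpr3, at position -149. The whole palindrome GGTCANNNTGACC was in 0.0700% of all promoters and in none of the 8 windows. Kitl held a TATA box (TATAAA) at position -25, a motif of 13.6% of all promoters, and GC boxes (GGGCGG) at positions -143, -45 and -41, a motif of 35.7% of all promoters. Gja1 held an AP-1 site (TGANTCA) at position -19, a motif of 7.81% of all promoters, and the half-site of the cAMP response element (CGTCA) at positions -201 and -159, a motif of 20.8% of all promoters. None of the 7 motifs searched was in the Npr2 window. A match is a string of letters and no match says nothing of the factor.

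Gja1 was the granulosa gene of the set, with group means of 548 to 1210 CPM in granulosa cells and 0.222 to 3.31 CPM in oocytes. Kit, Gja4, Gpr3 and Pde3a were the oocyte genes, and each had a lower mean in every granulosa group than in any oocyte group. Kit averaged 1.80 to 6.65 CPM in granulosa groups and 151 to 194 CPM in oocyte groups. Gja4 averaged 0.182 to 3.41 CPM in granulosa groups and 87.5 to 133.9 CPM in oocyte groups. Gpr3 averaged 0.392 to 1.17 CPM in the granulosa groups of 4 and 7 weeks and 69.4 to 99.99 CPM in the oocyte groups of the 3 ages. Pde3a averaged 1.08 to 3.19 CPM in granulosa groups and 104.1 to 269 CPM in oocyte groups. Npr2 was read in granulosa libraries alone, at group means of 38.3 to 91.8 CPM, and Npr2 in oocytes, Nppc in oocytes of 4 weeks and Gpr3 in granulosa cells of 6 months are not analysed here.

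Set per kilobase of merged exons, Gja1 stood above the other granulosa members, at 345 ± 88.1 CPM per kilobase in 4-week KO granulosa cells. On the same scale Npr2 had 21.5 ± 3.46, Nppc 4.57 ± 2.23 and Kitl 3.17 ± 1.14 (SD, n = 7 each). In 4-week KO oocytes the level per kilobase was 59.4 ± 12.9 for Gja4, 33.5 ± 5.29 for Kit, 30.4 ± 10.2 for Gpr3 and 15.6 ± 7.57 for Pde3a (SD, n = 7 each). Gja4 lies on chromosome 4 with exons of 1685 bases and Pde3a on chromosome 6 with exons of 12302 bases (GENCODE annotation of GRCm38), so that CPM alone puts them in another order.

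Tested with edgeR across all genes of an age (Benjamini-Hochberg adjusted p under 0.05), granulosa cells differed from oocytes in most members, as in most genes. The members called were 6 of 6 tested in KO and 5 of 6 in WT at 4 weeks, 7 of 7 in KO and 6 of 7 in WT at 7 weeks, and 5 of 6 in KO and 4 of 6 in WT at 6 months. Over all genes tested the calls at 4 weeks were 81.7% in KO and 83.3% in WT. At 7 weeks they were 81.4% in KO and 77.2% in WT, and at 6 months 77.4% in KO and 85.1% in WT, so these counts are near the background. The log2 folds of granulosa cells over oocytes ran from 6.72 to 10.4 for Gja1 and from -7.47 to -5.27 for Kit. They ran from -9.17 to -5.81 for Gja4, from -8.63 to -6.35 for Gpr3 and from -8.39 to -6.36 for Pde3a. The largest of these rest on few counts on the low side, for instance 5 counts of Gja4 over the 7 KO granulosa libraries of 4 weeks and 5 counts of Gja1 over the 4 KO oocyte libraries of 6 months.

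**Figure D1:**
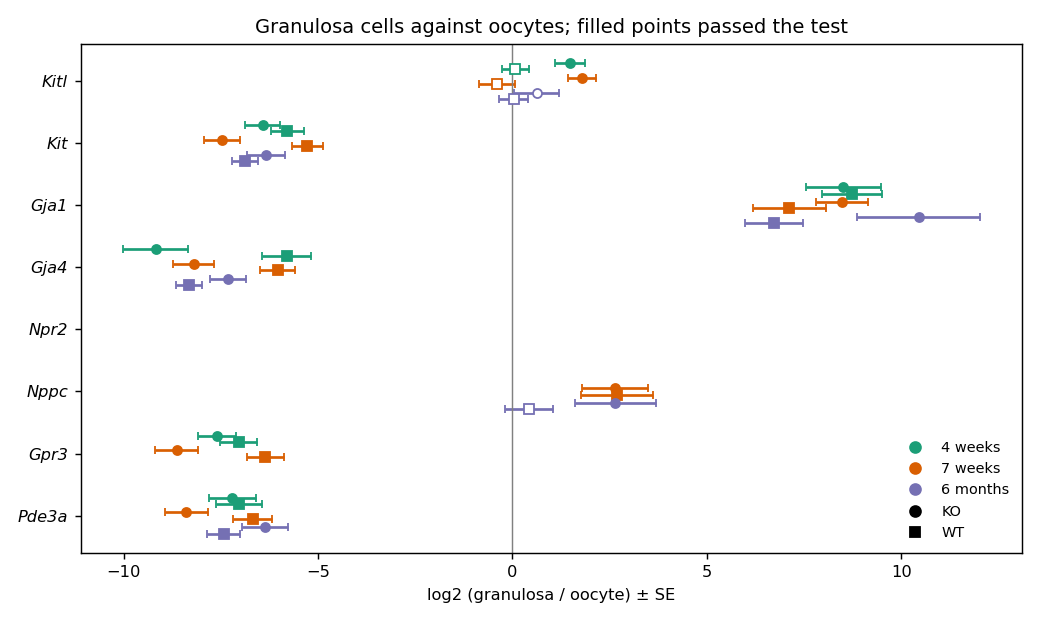
Log2 fold of granulosa cells over oocytes with its SE (horizontal axis) for each member tested (vertical axis), by age (colour) and genotype (circles KO, squares WT); filled points passed the edgeR test at an adjusted p under 0.05. Gja1 lies at 6.72 to 10.4, the oocyte genes Kit, Gja4, Gpr3 and Pde3a at -9.17 to -5.27, and Kitl near 0 in WT and at 1.47 and 1.78 in KO at 4 and 7 weeks.

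Kitl, the ligand, was called in KO at 4 and 7 weeks and not in WT. Its WT log2 folds of granulosa cells over oocytes were 0.08 ± 0.35 at 4 weeks, -0.40 ± 0.46 at 7 weeks and 0.03 ± 0.37 at 6 months (SE), with adjusted p of 0.429 to 0.934. In KO, the log2 fold was 1.47 ± 0.39 at 4 weeks (adjusted p = 0.00079) and 1.78 ± 0.36 at 7 weeks (adjusted p = 5.14e-05). At 6 months it was 0.62 ± 0.58 and not called (adjusted p = 0.33). A call in KO alone does not show that the genotypes differ. The difference between the KO and WT folds of Kitl was not called at 4 weeks. Over 5 alternative settings of that test it was 1.27 to 1.39 log2 units (adjusted p of 0.210 to 0.897). The difference at 7 weeks is given below. Scaled by library totals alone, the median of all genes moved to between 0.587 and 0.838 log2 in the 6 comparisons of granulosa cells with oocytes, against 0.022 to 0.369 after TMM scaling, so the Kitl values near 0 depend on the scale. Without TMM the WT folds were 0.56 at 4 weeks (adjusted p = 0.130), 0.08 at 7 weeks (0.869) and 0.78 at 6 months (0.0601), and the KO folds 1.95, 2.64 and, at 6 months, 1.33 (adjusted p = 0.0501), so that no call changed.

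Kitl was higher in KO than in WT granulosa cells of 4 weeks, by a fitted 2.96-fold. The 7 KO libraries had 10.3, 10.9, 29.4, 18.3, 21.1, 17.4 and 18.0 CPM, against 7.20, 5.47, 7.78, 4.33, 4.61, 4.89 and 6.96 CPM in the 7 WT libraries. Every KO library lay above every WT library. Kitl was read from few counts, 458 over the KO libraries and 125 over the WT libraries. The mean was 17.9 ± 6.46 CPM in KO and 5.89 ± 1.40 CPM in WT (SD, n = 7 each), and the log2 fold was 1.57 ± 0.30 (SE; adjusted p = 0.00445). This was the 1 member called of 5 tested, where 2.33% of 12161 genes were called. It was called with each of the 14 libraries left out in turn, with adjusted p of 0.00415 to 0.0198. Other marker sums differed in the same libraries, with overlap. The 12 granulosa markers summed to 3066 to 6638 CPM in KO and 1610 to 4205 CPM in WT. The 8 luteal markers summed to 2842 to 5422 CPM in KO and 3619 to 13096 CPM in WT. What the granulosa and luteal sums had to do with Kitl was not tested. Blood and immune marker sums ranged lower in KO. The 5 erythroid markers, all with a row and none at 0, summed to 9.23 to 40.9 CPM in KO and 26.1 to 889.7 CPM in WT, and the 11 immune markers, none at 0, to 252.8 to 589 CPM in KO and 402 to 2036 CPM in WT. With the erythroid sum as a covariate the log2 fold of Kitl was 1.76 ± 0.59 (adjusted p = 0.498), and with the immune sum 1.54 ± 0.44 (adjusted p = 0.135). These covariates were chosen after seeing the data. Over 9 settings, these included, Kitl was called in 7 and its adjusted p ran from 6.05e-05 to 0.498.

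At 7 weeks the Kitl means were as far apart, but the nearest libraries were closer. The 5 KO libraries had 23.8, 24.4, 11.3, 12.7 and 24.7 CPM, against 5.69, 5.20, 10.6, 5.96 and 4.46 CPM in the 5 WT libraries. The groups did not overlap, with the third WT library close to the lowest KO library. Summed counts of Kitl were 240 in KO and 111 in WT. The means were 19.4 ± 6.78 CPM in KO and 6.37 ± 2.41 CPM in WT (SD, n = 5 each). The log2 fold of 1.48 ± 0.38 had an adjusted p of 0.0771 in edgeR and 0.0149 in DESeq2, with 0.0149 to 0.218 over the 9 settings. The highest of these came without the 3 WT libraries rich in oocyte markers (1.66, adjusted p = 0.218), which left 2 WT libraries. Other marker sums also differed between these groups. The 8 surface epithelium markers, none at 0, summed to 139 to 448 CPM in KO and 567 to 1848 CPM in WT, without overlap. Mast cell markers, 6 of 8 with a row, summed to 49.8 to 139 CPM in KO and 133 to 575 CPM in WT. What these sums had to do with Kitl was not tested. No member of 4 tested passed in edgeR, where 0.8% of genes were called. All 4 had an unadjusted p under 0.05, as had 2227 of 12002 genes, and DESeq2 called Kitl, among 564 genes.

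By 6 months the genotypes overlapped. Kitl had 3.71, 8.05 and 9.42 CPM as lowest, median and highest of 6 KO libraries, against 1.28, 6.02 and 11.7 CPM in 12 WT libraries. The log2 fold was 0.43 ± 0.35 (adjusted p = 0.396). No member of 5 tested passed in edgeR, where 12.6% of genes were called. An unadjusted p under 0.05 was found for 1 (Nppc), and for 3915 of 12505 genes. DESeq2 called no member and 2088 genes. Over the 12 groups, mean Kitl was highest in KO granulosa cells of 7 and 4 weeks, which overlapped each other, and the group next in order, KO granulosa cells of 6 months at 7.65 ± 2.14 CPM, did not overlap the 4-week KO group. From there down to 3.01 ± 1.15 CPM in KO oocytes of 6 months each group overlapped the next. The difference of the Kitl effect between ages was -1.15 ± 0.44 log2 units for 6 months less 4 weeks (adjusted p = 0.335) and -1.05 ± 0.49 for 6 months less 7 weeks (adjusted p = 0.138), neither called.

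**Figure D2:**
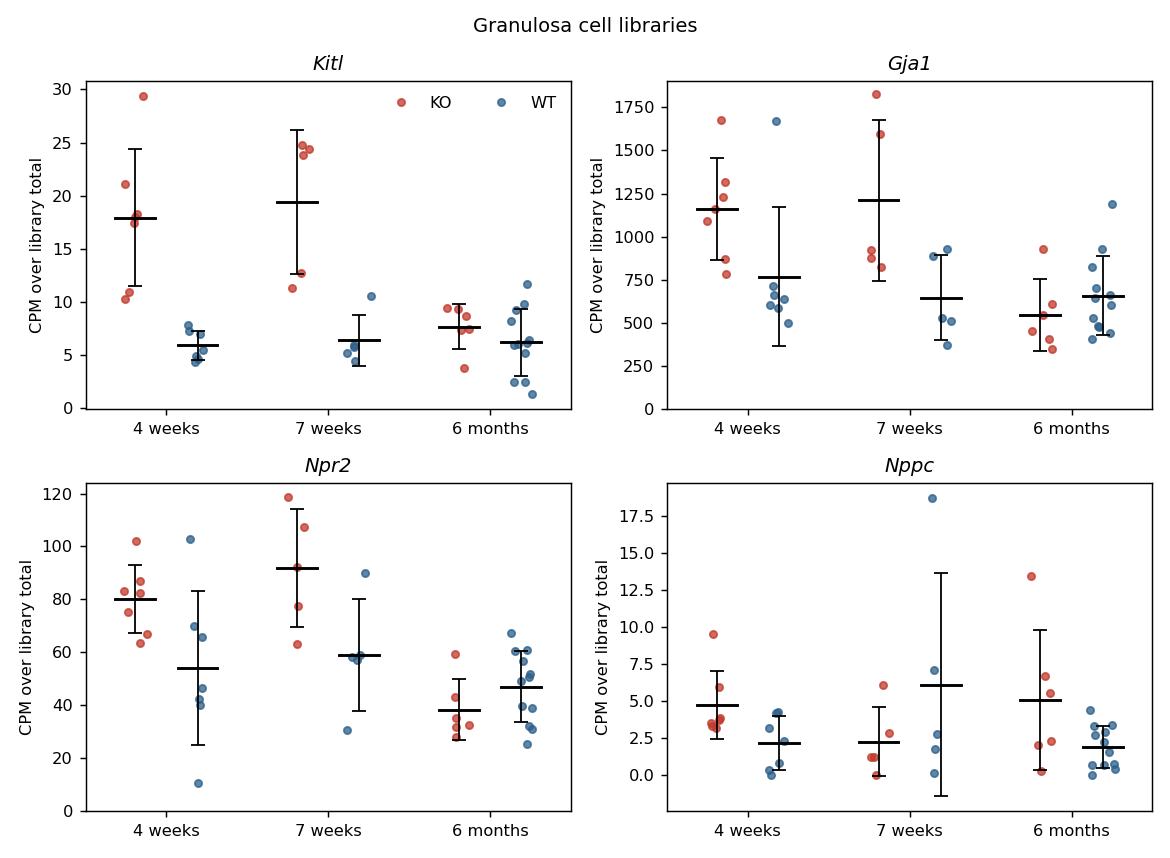
CPM (vertical axes, from 0 or just below) of Kitl, Gja1, Npr2 and Nppc in each granulosa library by age (horizontal axes), KO left of WT; bars are mean and SD. KO libraries of Kitl lie at 10.3 to 29.4 CPM at 4 weeks and 11.3 to 24.7 CPM at 7 weeks, above all WT libraries of those ages, and at 3.71 to 9.42 CPM at 6 months.

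Gja1, the granulosa connexin, and Npr2, the natriuretic peptide receptor, had higher means in young KO granulosa cells without passing the test. Gja1 averaged 1162 ± 297 CPM in KO and 769 ± 404 CPM in WT at 4 weeks (log2 fold 0.57 ± 0.25, adjusted p = 0.393). All 7 KO libraries, at 783 to 1678 CPM, lay above the WT median, and the WT library 1, at 1672 CPM, stood far above the other 6 at 498 to 717 CPM. Without that WT library the log2 fold was 0.84 and passed (adjusted p = 0.0242, over a range of 0.0242 to 0.658 for the 14 fits with a library left out). At 7 weeks Gja1 averaged 1210 ± 467 CPM in KO and 647 ± 248 CPM in WT (log2 fold 0.85 ± 0.31, adjusted p = 0.180). Npr2 averaged 80.0 ± 12.9 CPM in KO and 54.0 ± 29.0 CPM in WT at 4 weeks (log2 fold 0.54 ± 0.29, adjusted p = 0.586), and 91.8 ± 22.4 CPM in KO and 59.0 ± 21.1 CPM in WT at 7 weeks (0.58 ± 0.27, adjusted p = 0.261). At 6 months both means were lower in KO. Gja1 had 548 ± 208 CPM in KO and 658 ± 230 CPM in WT, and Npr2 had 38.3 ± 11.5 CPM in KO and 47.0 ± 13.5 CPM in WT, with log2 folds of -0.14 and -0.16 that were not called and turned positive under 3 and 2 of the 8 settings.

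Nppc, the ligand of Npr2, was low throughout, which limits what can be read from it. At 4 weeks the lowest, median and highest of 7 KO libraries were 3.18, 3.76 and 9.56 CPM, against 0, 2.32 and 4.32 CPM in WT (log2 fold 1.05 ± 0.59, adjusted p = 0.623). At 6 months the KO libraries ranged from 0.322 to 13.4 CPM and the WT libraries from 0 to 4.40 CPM (log2 fold 1.46 ± 0.55, adjusted p = 0.0721). It was called in 1 of 18 fits with a library left out, that without KO library 1 (1.71, adjusted p = 0.0439, in a range of 0.0439 to 0.395). At 7 weeks Nppc did not pass the filter on low counts; its KO libraries had 0 to 6.11 CPM and its WT libraries 0.194 to 18.8 CPM. Against oocytes, Nppc was higher in granulosa cells in KO of 7 weeks (2.63 ± 0.85 log2, adjusted p = 0.00586), WT of 7 weeks (2.69 ± 0.93, adjusted p = 0.0103) and KO of 6 months (2.65 ± 1.05, adjusted p = 0.0216), and not called in WT of 6 months (0.43 ± 0.62). The WT call of 7 weeks was lost without WT granulosa library 2 (1.59, adjusted p = 0.129), and the KO call of 6 months without KO oocyte library 2 (2.21, adjusted p = 0.0720).

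Between ages, the member calls in granulosa cells lay in KO, where Kitl, Gja1 and Npr2 fell at 6 months. Kitl averaged 7.65 ± 2.14 CPM at 6 months, against 19.4 ± 6.78 CPM at 7 weeks (log2 fold -1.04 ± 0.36, adjusted p = 0.0347) and 17.9 ± 6.46 CPM at 4 weeks (-0.98 ± 0.33, adjusted p = 0.0430). Gja1 had 407, 454, 348, 927, 545 and 609 CPM in the 6 libraries of 6 months, against 1598, 1828, 826, 922 and 877 CPM in the 5 of 7 weeks; the groups overlapped through a single library of 6 months, the one at 927 CPM. Its log2 fold was -0.90 ± 0.27 against 7 weeks (adjusted p = 0.0163) and -0.87 ± 0.25 against 4 weeks (adjusted p = 0.0174). Npr2 had 28.1, 31.7, 32.4, 35.3, 43.1 and 59.3 CPM at 6 months, all below the 63.0 to 119 CPM of 7 weeks and the 63.6 to 102 CPM of 4 weeks. Its log2 fold was -1.02 ± 0.28 against 7 weeks (adjusted p = 0.00960) and -0.83 ± 0.26 against 4 weeks (adjusted p = 0.0262).

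These were 3 members called of 6 tested in both comparisons, where 22% of all genes were called for 6 months against 7 weeks and 13.8% for 6 months against 4 weeks. With library totals as the scale the median of all genes lay at -0.30 and -0.29 log2 in these 2 comparisons, where 793 genes were called higher and 2877 lower for 6 months against 7 weeks, against 1433 and 1721 after TMM scaling. The 3 members then had log2 folds of -1.14 to -1.32 and -1.07 to -1.23. The Kitl call against 7 weeks was lost when KO library 1 (adjusted p = 0.0690), 2 (0.0904) or 5 (0.0850) of 7 weeks was left out, and the Gja1 call without library 2 (log2 fold -0.67, adjusted p = 0.0803). The Kitl call against 4 weeks was lost without the filter on low counts (adjusted p = 0.0502). Mast cell markers were higher beside them. The 8 listed genes summed to 484 to 665 CPM in KO granulosa libraries of 6 months, against 49.8 to 139 CPM at 7 weeks, with 5 and 6 of the 8 having a row and none of those at 0. Theca and stroma markers summed to 12.3 to 361 CPM at 6 months and 30.8 to 115 CPM at 7 weeks. Luteal markers summed to 6256 to 13420 CPM at 6 months, 4086 to 8046 CPM at 7 weeks and 2842 to 5422 CPM at 4 weeks. Surface epithelium markers had 357 to 1184, 139 to 448 and 187 to 874 CPM at these ages. The granulosa markers had 2136 to 5535, 2111 to 5914 and 3066 to 6638 CPM. The part of these marker sums in the result was not tested, and age cannot be told apart from the table and any preparation that went with it.

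In WT granulosa cells no member of 6 tested was called between ages. Calls over all genes were 0% for 7 weeks against 4 weeks, 1.36% for 6 months against 7 weeks and 8% for 6 months against 4 weeks. Members with an unadjusted p under 0.05 numbered 1, 2 and 0, against 1357, 1982 and 3316 of 14307 genes. DESeq2 called no member, against 1, 348 and 1623 genes. Kitl was 5.89, 6.37 and 6.20 CPM on average at 4 weeks, 7 weeks and 6 months. In KO granulosa cells none was called for 7 weeks against 4 weeks either (0.0419% of genes called). There 0 members had an unadjusted p under 0.05, against 1218 of 14307 genes, and DESeq2 called 0, against 42 genes. A test of the difference of the knockout effect between ages called no member in edgeR, with 0.00699% of genes called for 7 weeks against 4 weeks, 10.4% for 6 months against 7 weeks and 0.657% for 6 months against 4 weeks. For 6 months against 7 weeks 4 of 6 members had an unadjusted p under 0.05, as had 4370 of 14307 genes. DESeq2 called Nppc (3.12, adjusted p = 0.0270) and Kit (2.77, adjusted p = 0.0421), among 2332 genes. Oocyte genes moved as much in this contrast, by 3.81 for Gdf9 (adjusted p = 0.0329), 3.78 for Bmp15 (0.0376) and 3.77 for Mos (0.0495) in edgeR. Without the 3 WT libraries of 7 weeks rich in oocyte markers and the 1 of 4 weeks, Kit was 3.10 (adjusted p = 0.112) and Nppc 4.15 (adjusted p = 0.0199) in edgeR. Without KO library 2 or WT library 5 of 7 weeks edgeR called Nppc as well (adjusted p = 0.0496 and 0.0265), without WT library 1 or 5 it called Gja1 (0.0386 and 0.0419), and so it did on library totals (0.0458). The edgeR values with all libraries were 3.00 ± 1.06 for Nppc (adjusted p = 0.0558), -0.98 ± 0.36 for Gja1 (0.0664) and 2.66 ± 1.05 for Kit (0.0806).

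On the oocyte side, Kit, the receptor for Kitl, was called in no comparison of genotype or age. Its medians were 173 CPM in KO and 163 CPM in WT at 4 weeks, 175 CPM in KO and 181 CPM in WT at 7 weeks, and 159 CPM in KO and 138 CPM in WT at 6 months. The log2 folds of KO over WT were 0.01 ± 0.14, 0.03 ± 0.19 and 0.02 ± 0.24 at the 3 ages, with adjusted p of 0.955 to 0.999, and their signs changed between settings. Kitl itself was read in oocyte libraries at 3.07 ± 1.18 CPM in KO (n = 12) and 6.28 ± 4.06 CPM in WT (n = 5) at 7 weeks, where all 12 KO libraries lay below the WT median of 6.91 CPM. That log2 fold was -0.87 ± 0.41 (adjusted p = 0.286).

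Gja4, the oocyte connexin, averaged 100.03 ± 21.8 CPM in KO and 126 ± 34.0 CPM in WT at 4 weeks. At 7 weeks it averaged 91.3 ± 19.5 CPM in KO and 87.5 ± 24.9 CPM in WT, and at 6 months 109.5 ± 9.68 CPM in KO and 134 ± 23.3 CPM in WT. Gpr3, the receptor that keeps cAMP up, averaged 80.3 ± 26.8 CPM in KO and 92.5 ± 30.2 CPM in WT at 4 weeks. At 7 weeks it averaged 99.99 ± 18.1 CPM in KO and 85.8 ± 22.9 CPM in WT, and 10 of 12 KO libraries lay above the WT median. At 6 months it averaged 69.4 ± 4.78 CPM in KO and 72.1 ± 17.6 CPM in WT. Pde3a, the cAMP phosphodiesterase, ranged widely, from 109 to 378 CPM over KO libraries and from 120 to 415 CPM over WT libraries of 4 weeks. The log2 folds of KO over WT for these 3 genes lay between -0.35 and 0.36 at the 3 ages. No member passed in oocytes in edgeR or DESeq2, of 5 tested at 4 weeks (0.00924% of genes called), 6 at 7 weeks (0.154%, or 18 genes, against 38 with the replicate numbers as a block) and 5 at 6 months (0.00818%). At an unadjusted p under 0.05 there were 0, 1 and 0 members, the 1 being Kitl, against 351 of 10828, 1963 of 11711 and 396 of 12225 genes. DESeq2 called 1, 202 and 1 genes.

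**Figure D3:**
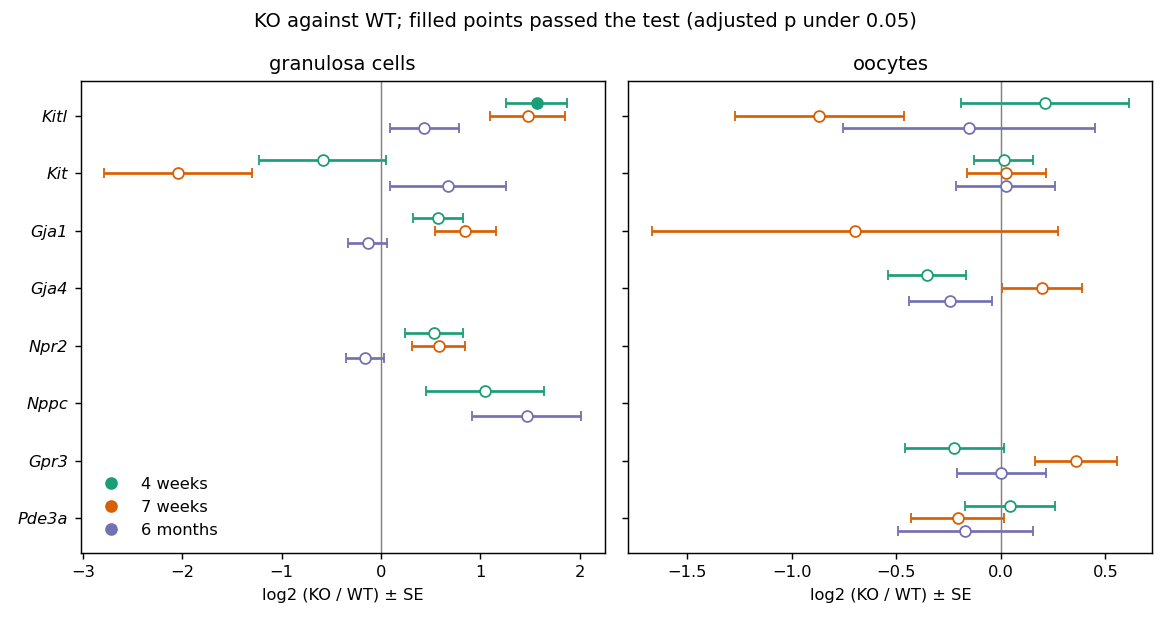
Log2 fold of KO over WT with its SE (horizontal axes, with different ranges) for each member tested (vertical axis) in granulosa cells (left) and oocytes (right), by age (colour); a filled point passed the edgeR test. The single filled point is Kitl in granulosa cells of 4 weeks at 1.57, next to Kitl of 7 weeks at 1.48 and of 6 months at 0.43; Kit in oocytes lies at 0.01 to 0.03.

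Gja4 and Pde3a were called between ages in WT oocytes. Gja4 had 98.7, 142 and 164 CPM as lowest, median and highest of the 11 WT oocyte libraries of 6 months, against 71.1, 111, 114, 56.4 and 85.0 CPM in the 5 of 7 weeks. The ranges overlapped, but every library of 6 months lay above the 7-week median, and the log2 fold was 0.86 ± 0.20 (adjusted p = 0.00137). Pde3a had 56.1, 94.2 and 342 CPM as lowest, median and highest at 6 months, against 410, 246, 319, 162 and 209 CPM at 7 weeks, and fell by 0.92 ± 0.26 on the log2 scale (adjusted p = 0.00652). Without the first 7-week WT library, at 410 CPM, the Pde3a fold was -0.75 and not called (adjusted p = 0.0514). These were 2 of 6 members tested, where 25.7% of genes were called, so the share of members is near the background.

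With all libraries, edgeR called no member between the other ages in oocytes. In WT the calls over all genes were 0.824% for 7 weeks against 4 weeks, where Gja4 had -0.73 ± 0.20 (adjusted p = 0.0529, and 0.0111 in DESeq2). They were 15.4% for 6 months against 4 weeks, where Pde3a had -0.53 ± 0.21 (adjusted p = 0.0708) and DESeq2 called no member. Over all genes DESeq2 called 1109 and 2524 of 13471 in these 2 comparisons. With a 7-week WT or 6-month KO library left out, edgeR called Gja4 in 2 of 9 fits for 7 weeks against 4 weeks (without WT library 3 or 5, adjusted p = 0.0487 and 0.0486). For 6 months against 4 weeks it called Pde3a in 3 of 9 (without WT library 1, 2 or 4 of 7 weeks, adjusted p = 0.0418, 0.0498 and 0.0454). In that comparison no WT library of 6 months or 4 weeks was left out. Its fits differ only through the filter, scale and spread that the groups share. In KO oocytes the calls were 0.0223% for 7 weeks against 4 weeks, 5.81% for 6 months against 7 weeks and 2.27% for 6 months against 4 weeks. Pde3a in KO oocytes averaged 104 ± 26.6 CPM at 6 months (n = 4), against 217 ± 70.9 CPM at 7 weeks (n = 12), a log2 fold of -0.89 ± 0.30 with an adjusted p of 0.0616 in edgeR and 0.0219 in DESeq2. Among KO oocytes the members with an unadjusted p under 0.05 numbered 0, 1 and 1 in these 3 comparisons, against 1094, 3105 and 2330 of 13471 genes. DESeq2 called 0, 1 and 0 members, against 28, 1533 and 682 genes. The difference of the knockout effect between ages called 0% of genes in all 3 oocyte contrasts. At an unadjusted p under 0.05 these held 1, 0 and 1 members, against 1526, 409 and 397 of 13471 genes. DESeq2 called no member, against 12, 0 and 0 genes.

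**Figure D4:**
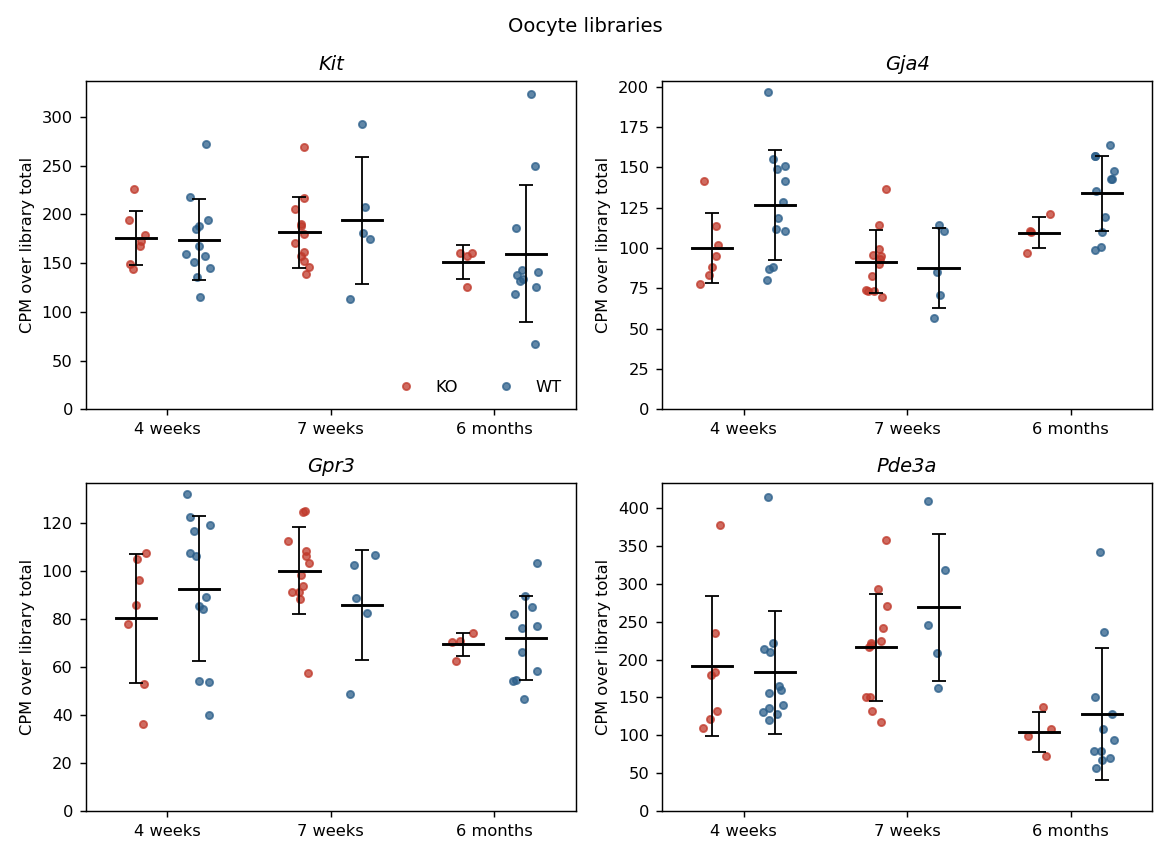
CPM (vertical axes, from 0) of Kit, Gja4, Gpr3 and Pde3a in each oocyte library by age (horizontal axes), KO left of WT; bars are mean and SD. KO and WT libraries overlap at every age, Kit stays at group means of 151 to 194 CPM, and Pde3a has its lowest means, 104 CPM in KO and 128 CPM in WT, at 6 months.

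Whether the knockout effect differed between the 2 cell types was tested at each age. At 7 weeks the effect on Kitl was 2.18 ± 0.59 log2 units higher in granulosa cells than in oocytes (adjusted p = 0.0334), and the effect on Kit was lower there, at -2.20 ± 0.55 (adjusted p = 0.0214). These were 2 of 7 members tested, where 4.62% of genes were called. Kit in granulosa cells had 0, 5.24, 0, 0.941 and 2.84 CPM in KO, against 5.69, 11.3, 4.02, 8.16 and 4.07 CPM in WT, a low level on which the second value rests. Oocyte genes moved the same way in this contrast, by -3.84 for Gdf9 (adjusted p = 0.0174), -3.34 for Bmp15 (0.0202), -3.81 for Mos (0.0165) and -2.67 for Wee2 (0.0414). The oocyte markers summed to 39.3 to 115 CPM in the KO granulosa libraries, against 31.3, 55.9, 306, 411 and 375 CPM in the WT ones, of which the second, with the most Kit, had little. Without the last 3 WT libraries the Kit value was -2.63 (adjusted p = 0.0245) and the Kitl value 2.52, not called (adjusted p = 0.0913), with 2 WT granulosa libraries left. DESeq2 called 4 members and 1304 of 12114 genes, adding Gja4 (-2.26, adjusted p = 0.0277) and Gpr3 (-2.40, adjusted p = 0.0306). Without those 3 WT libraries edgeR gave -1.87 for Gja4 (adjusted p = 0.215) and 0.31, the other direction, for Gpr3 (0.922). Fits that left out a library called Gja4 without KO granulosa library 4 or WT granulosa library 1 (adjusted p = 0.0183 and 0.0433) and Gpr3 without KO granulosa library 3 or WT granulosa library 2 (0.0206 and 0.0469). The Kitl call was lost without KO granulosa library 2 or 5, WT granulosa library 2 or 4, or WT oocyte library 1 of 7 weeks (adjusted p of 0.0549 to 0.0812), and the Kit call without WT granulosa library 2 (-1.86, adjusted p = 0.0582). At 4 weeks (0.382% of genes called) and 6 months (0.225%) no member of 6 tested was called. An unadjusted p under 0.05 was found for 2 and 1 members, against 1023 of 11795 and 1537 of 11991 genes. DESeq2 called Gja4 at 4 weeks (-3.83, adjusted p = 0.0315), among 167 genes. There edgeR gave Gja4 -1.35 (adjusted p = 0.676) without the WT granulosa library rich in oocyte markers.

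The oocyte genes found at low level in granulosa libraries were set beside the oocyte markers there. In 4-week KO granulosa libraries the mean of Kit was 1.63% of its mean in KO oocytes, and Gja4, Gpr3 and Pde3a stood at 0.182%, 0.633% and 0.939%. The median over 14 oocyte markers was 0.0653%, with a range of 0.0484 to 12.6%, the highest being Tle6. In WT of 4 weeks Kit stood at 2.36%, Gja4 at 2.70%, Gpr3 at 1.21% and Pde3a at 0.991%, with a marker median of 0.588%. At 7 weeks, in KO, Kit stood at 0.994%, Gja4 at 0.397%, Gpr3 at 0.392% and Pde3a at 0.590%, with a marker median of 0.111%. In WT of 7 weeks Kit stood at 3.43%, Gja4 at 1.80%, Gpr3 at 1.36% and Pde3a at 1.19%, with a marker median of 0.530%. These 4 members and the marker median were all higher in WT at 4 and 7 weeks. At 6 months they were higher in KO, Gpr3 aside, which was not analysed there. Kit, Gja4 and Pde3a stood at 2.22%, 0.873% and 1.94% in KO and at 1.39%, 0.453% and 0.839% in WT. The median over 11 markers was 0.0784% in KO and 0.0467% in WT. WT granulosa library 6 of 4 weeks had the highest oocyte marker sum, 1110 CPM, and the highest Gja4, 17.3 CPM, where the other 6 WT libraries had marker sums of 35.0 to 104.6 CPM and Gja4 of 0 to 5.66 CPM. Across the 42 granulosa libraries the Pearson correlation with the oocyte marker sum was 0.58 for Gja4, 0.17 for Kit and -0.03 for Pde3a on the log2 scale, libraries that share cell type and differ in depth. Group means of that sum were 61.9 to 236 CPM, to which Tle6 gave 37.6 to 72.7 CPM. Across the 51 oocyte libraries Gja1 correlated with the granulosa marker sum at 0.62, the oocyte gene Gpr3 at 0.40 and Kitl at 0.26, a sum to which Cyp19a1, Gata4 and Nr5a2 gave group means of 13.9 to 82.1 CPM each in oocytes and Inha 1.16 to 67.8 CPM.

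Around the members, lists of pathway genes were counted in the granulosa comparisons of KO with WT. Over all genes 2.33% were called at 4 weeks, 0.8% at 7 weeks and 12.6% at 6 months, and the counts of each list stand against these shares. Of the cGMP genes 1 rose and 2 fell of 12 tested at 4 weeks, and 0 of 12 passed at 7 weeks. Gucy1a1, a subunit of soluble guanylyl cyclase, had 12.3 ± 3.99 CPM in KO and 2.30 ± 1.38 CPM in WT (log2 fold 2.38, adjusted p = 0.00504). Pde5a, a cGMP phosphodiesterase, had 17.9 ± 3.92 CPM in KO and 71.6 ± 31.9 CPM in WT (-2.02, adjusted p = 0.000297), and Prkg2, a cGMP-dependent kinase, had 14.3 ± 6.12 CPM in KO and 44.2 ± 17.3 CPM in WT (-1.67, adjusted p = 0.00316). At 6 months 4 rose and 2 fell of 14 tested, Pde5a lower (8.26 ± 3.51 CPM in KO and 29.8 ± 14.6 CPM in WT; -1.66, adjusted p = 0.00226), with Gucy1a1 at 1.24, Guk1, the guanylate kinase, at 0.71 and Npr1, the receptor of atrial natriuretic peptide, at 0.87 log2 higher. The median log2 fold of the list was 0.04 at 4 weeks, -0.12 at 7 weeks and 0.44 at 6 months, against -0.02, 0.01 and -0.02 over all genes.

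The luteinizing hormone receptor Lhcgr fell at both young ages in the list of its relay. It had 2.38 ± 0.952 CPM in KO and 45.1 ± 32.3 CPM in WT at 4 weeks (-4.24, adjusted p = 4.66e-06) and 4.33 ± 2.74 CPM in KO and 49.3 ± 30.9 CPM in WT at 7 weeks (-3.51, adjusted p = 0.00746), the 1 gene called of 11 and of 10 tested. At 6 months 1 rose (Egfr, the receptor of epidermal growth factor, 0.64) and 2 fell (Cebpb, a transcription factor, -2.56, and Ptx3, a matrix protein, -1.40) of 12 tested. Lhcgr was not called there. The difference of its knockout effect in edgeR was 3.60 ± 0.65 for 6 months less 4 weeks (adjusted p = 0.00231, with 0.657% of genes called). For 6 months less 7 weeks it was 2.87 ± 0.72 (adjusted p = 0.0164, with 10.4% of genes called). Of the genes of Kit signalling 0 of 24 passed in granulosa cells at 4 weeks and at 7 weeks, and 2 fell at 6 months, the adaptor Grb2 (-0.89) and the exchange factor Sos1 (-0.82), a share below the 12.6% of all genes. Of the cAMP and meiotic arrest genes none of 22 and none of 21 passed at 4 and 7 weeks, and 1 rose (Adcy9, an adenylyl cyclase, 0.72) and 3 fell at 6 months (Gnas, the stimulatory G protein, -0.85; Prkaca, a catalytic subunit of protein kinase A, -0.63; and Pde8a, -0.69) of 21. Of the oocyte factors and their receptors none of 10 passed at 4 and 7 weeks, and 1 rose and 3 fell of 10 at 6 months. The receptor Tgfbr1 fell (-1.65), as did Bmp6 (-0.89) and Smad3 (-0.83), and Gdf9 rose (15.1 ± 5.38 CPM in KO and 8.24 ± 4.51 CPM in WT), in libraries where the oocyte marker sum, of which Gdf9 is part, was 67.1 to 114 CPM in KO and 36.7 to 78.7 CPM in WT. Tle6 gave that sum means of 62.4 CPM in KO and 45.4 CPM in WT. Of 15 other connexin and junction genes 4, 3 and 3 were tested in granulosa cells at the 3 ages and 0 passed, and no gene of the 6 lists passed in oocytes at any age.

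Between ages in KO granulosa cells, 8 of 25 tested genes of Kit signalling fell and 0 rose at 6 months against 7 weeks, with a list median of -0.56 log2 against -0.05 over all genes, and 3 fell and 0 rose against 4 weeks. Over all genes 22% and 13.8% were called in these comparisons, so the second count is below the background. In WT granulosa cells 0 of the 25 were called in either comparison. In WT oocytes 12 of 24 fell and 1 rose at 6 months against 7 weeks (median -0.71 against 0.07 over all genes, 25.7% of which were called), and 7 fell and 1 rose against 4 weeks (15.4%). In KO oocytes 1 fell and 1 rose against 7 weeks (median -0.66 against -0.04 over all genes, 5.81% of which were called). Against 4 weeks 0 fell and 1 rose in KO (median -0.66, where the WT median was -0.35, with 2.27% of genes called). KO oocytes of 6 months had 4 libraries and WT 11, and no difference of the knockout effect between ages was called in oocytes. In granulosa cells the difference of the knockout effect between 6 months and 7 weeks was called for 7 of the 25, all negative. Among them were Cbl, a ubiquitin ligase (-1.59), Grb2 (-1.78), Sos1 (-1.66) and Foxo1, a transcription factor (-1.29). The same contrast was called in 10.4% of all genes.

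The genes whose log2(CPM + 1) followed each member most closely over its cell type were named as a description. Over the 42 granulosa libraries, Kitl ran with Thrb (Pearson r 0.81), Adamts2 (0.77) and Col4a1 (0.77), among 10126 genes with a mean of at least 5 CPM. Gja1 ran with Snx18, Foxo1 and Camk2d (0.88 each) and Npr2 with Lig3 (0.86), Thra (0.82) and Zfp282 (0.82). Nppc ran with Mylk (0.76), Sox9 (0.71) and Thrsp (0.70). Over the 51 oocyte libraries Pde3a ran with Acbd3, Usp38 (0.96 each) and Tmcc3 (0.95), closer than any neighbour of Kit (Ern1 and Hps5, 0.82), Gja4 (Sec22a, 0.77) or Gpr3 (Mpped1, 0.76), among 7816 genes. Libraries share depth and table in these values, and genes are not independent.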

How the data were processed

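The 93 libraries were grouped by the cell type, genotype and age in their labels. The authors deposited a table of estimated counts per gene and library for each cell type and age, and 15.7 to 18.6% of the values in a table are not whole. The deposited tables of normalised values, a signal scaled by the authors, were not used. Partek, STAR, DESeq2 and mm10 are named per the submitters' processing notes; versions and the annotation are not given in the sources used here. Every row of a deposited table has at least 1 count in at least 25% of its libraries. Among the 7-week oocytes, 1 column names a KO library but matches no single label, and was used as a KO library without a number.

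CPM used each library's total. Counts were rounded and tested with edgeR 4.0.16 (R 4.3.3, limma 3.58.1; filterByExpr, TMM scaling, robust quasi-likelihood F test), with Benjamini-Hochberg adjustment over all genes tested and a threshold of 0.05. KO and WT were compared within each table, ages in 1 model per cell type, and cell types in 1 model per age. The alternatives were DESeq2 1.42.0, limma voom, library totals, no filter, a marker share covariate, a replicate block, and each library left out, and the tests were tried on simulated data. Erythroid and immune covariates, and fits without 4 granulosa libraries whose oocyte markers summed to over 200 CPM, were added after seeing the data. Replicate numbers were taken to pair libraries where all same-numbered pairs correlated above 0.1. This held between KO and WT for the 7-week oocytes alone (4 pairs, 0.118 to 0.543). The pairing comes from this correlation and not from the labels. It is weak, since 2 of the 4 KO libraries correlated best with their own number, and the main test of these oocytes was not paired. Named genes are the 8 members, up to 4 called genes per pathway list with the smallest p, and the 3 genes most correlated with each member. Members and lists were chosen with earlier results of these data known.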

Additional observations from a re-analysis of the deposited data

Results flagged for a closer look

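Among 59 sets, each 1 gene in 1 group of 4 to 10 libraries, 11 held a library far from the others. Chance alone marks about 1 in 20 of such sets. The sets share libraries, and some hold mostly 0, such as Gja4 in KO granulosa cells of 4 weeks (a count in 2 of 7 libraries). An excess over chance is therefore not shown. In granulosa cells, Kitl stood apart at 3.71 CPM in KO library 6 of 6 months and at 10.6 CPM in WT library 3 of 7 weeks. Kit stood at 11.5 CPM and Pde3a at 10.6 CPM in the same library, KO library 2 of 4 weeks. Gja1 stood at 1672 CPM in WT library 1 of 4 weeks. Gja4 stood at 1.00 CPM in KO library 7 and at 17.3 CPM in WT library 6 of 4 weeks, and Gpr3 at 1.67 CPM in KO library 3 of 7 weeks. In oocytes, Kit stood at 125.6 CPM in KO library 2 of 6 months, and Gja1 at 10.5 CPM in KO library 4 of 4 weeks and at 11.2 CPM in WT library 2 of 7 weeks.

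The effect of the knockout differed between granulosa cells and oocytes of 7 weeks by 2.18 log2 units for Kitl and by -2.20 for Kit, by an interaction term in edgeR (adjusted p = 0.0334 and 0.0214). Without the 3 WT granulosa libraries rich in oocyte markers the values were 2.52 (adjusted p = 0.0913) and -2.63 (0.0245).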

How the results depend on the processing

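Of the log2 folds recomputed without leaving out a library, 433 kept direction and side of the threshold, 10 passed newly, 8 no longer passed and 19 changed sign. The number of members called for KO against WT in granulosa cells of 4 weeks was 0 with the erythroid and 0 with the immune covariate, against 1. It was 1 in DESeq2 at 7 weeks, against 0. For the knockout effect between ages in granulosa cells it was 2 in DESeq2, 1 on library totals and 1 without the 4 granulosa libraries rich in oocyte markers, against 0, and for ages in KO oocytes 1 in DESeq2, against 0. For the knockout effect between cell types over the 3 ages it was 5 in DESeq2, 1 without those 4 libraries and 0 with the replicate block, against 2. With libraries left out, members called ranged from 1 to 2 for KO against WT in granulosa cells of 4 weeks, 0 to 1 at 6 months, 0 to 2 for the knockout effect between ages in granulosa cells, 0 to 1 for ages in KO oocytes and 1 to 3 for the knockout effect between cell types. In the joint models only libraries of the groups of 5 or fewer were left out. The cause was not tested for any of these.

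Folds that changed sign were small or rested on few counts. For KO over WT in granulosa cells of 6 months, Gja1 was 0.23 with the marker share covariate, 0.076 with the erythroid covariate and 0.0094 with the replicate block, and Npr2 0.065 and 0.029 with those 2 covariates. In oocytes of 4 weeks, Kit was -0.011 with the marker share covariate and -0.076 with the block, and Pde3a -0.080 with the block. In oocytes of 7 weeks, Kit was -0.10 on library totals, -0.0040 with the marker share covariate and -0.20 with the block, and Gpr3 -0.0087 with the block. In oocytes of 6 months, Kit was -0.080 and Gpr3 -0.057 on library totals, Gpr3 -0.018 with the marker share covariate, and Kitl 0.20 in limma voom and 1.11 with the block. Kitl in WT granulosa cells over oocytes of 7 weeks was 0.084 on library totals, and the 7-week interaction of Gpr3 was 0.31 without the 4 libraries rich in oocyte markers. With libraries left out, oocyte folds of KO over WT ranged at 4 weeks from -0.038 to 0.35 for Kitl, -0.051 to 0.095 for Kit and -0.16 to 0.22 for Pde3a; at 7 weeks from -0.12 to 0.21 for Kit and -1.40 to 0.55 for Gja1; and at 6 months from -0.35 to 0.047 for Kitl, -0.046 to 0.14 for Kit, -0.049 to 0.057 for Gpr3 and -0.31 to 0.042 for Pde3a. Kitl in WT granulosa cells over oocytes of 7 weeks ranged from -0.71 to 0.064.

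Outside 7-week oocytes the replicate numbers did not pair the libraries by the data. There the block lost the 7-week interactions of Kitl (2.59, adjusted p = 0.252) and Kit (-1.82, adjusted p = 0.339) and the granulosa calls of Nppc over oocytes in KO of 7 weeks (adjusted p = 0.0625) and 6 months (0.124). Genes called with the block were 645 against 1580 for KO against WT in granulosa cells of 6 months, and 11 against 45, 0 against 560 and 2 against 27 for the knockout effect between cell types at 4 weeks, 7 weeks and 6 months. At most 2 libraries of a comparison correlated best with their own number, except 5 of 11 between WT granulosa cells and oocytes of 6 months. DESeq2 called more genes than edgeR: for KO against WT 512 against 283 in granulosa cells of 4 weeks, 564 against 96 at 7 weeks and 202 against 18 in oocytes of 7 weeks, where library totals gave 30. Depth limits Nppc, Kit and the other oocyte genes in granulosa cells, and Gja1 in oocytes, to a few counts per library.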
